A study of Mus musculus with 4 samples.

Results

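Alpha-defensin genes were followed in thymic epithelial cells (TECs) of mice in which the homeobox gene Meis1 had been deleted, and in those of their controls. The members are 10 genes (Defa-rs2, Defa-rs12, Defa1, Defa3, Defa4, Defa6, Defa20, Defa21, Defa22 and Defa23), found as every non-control probe whose gene name, or current symbol by RefSeq accession, was one of these, out of 28034 gene or transcript names on the arrays. They were measured by 12 of the 41174 probes on the arrays, with 2 probes each for Defa-rs2 and Defa3 and 1 for each of the others. The family was chosen because some of its probes read far lower in the Meis1-deleted cells, so the comparison of the 2 genotypes is given for the members as a description without a test.

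Each of 4 single-colour arrays held the RNA of TECs sorted as CD45-negative and EpCAM-positive from a pool of 6 mice. All mice carried K14-CreERT2, a tamoxifen-inducible recombinase driven by the keratin 14 promoter, and were given tamoxifen from the age of 3 weeks (1 mg a day for 3 days), and their cells were sorted 4 days afterwards. The Meis1-CKO pools (n = 2) came from mice with both Meis1 alleles floxed, and the control pools (n = 2), labelled WT, from mice with 1 floxed and 1 normal allele. Controls therefore shared the recombinase and the drug, and may have lost 1 Meis1 copy in recombined cells. The labels name 2 independent experiments and no inbred background of the mice. Keratin 14 is expressed in only some TECs, and no label gives the share of cells that recombined.

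Alpha-defensins are short cationic peptides, rich in disulphide bonds, that kill bacteria. In the mouse they are known as cryptdins and are secreted by Paneth cells at the base of the small intestinal crypts, where the protease matrilysin (Mmp7) cuts them from their precursors. Mouse neutrophils, unlike human ones, lack them. Medullary TECs transcribe many genes of peripheral tissues, intestinal ones among them, through the regulators Aire and Fezf2, which exposes developing T cells to the products. The genes lie in a repetitive cluster of near-identical copies on chromosome 8, and the set of copies differs between inbred strains. The Defa-rs genes (cryptdin-related sequences) encode peptides with another arrangement of cysteines.

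Because the copies are so alike, the probe letters set what each value can be said to measure. The array files placed 8 member probes, of 7 genes, on chromosome 8 of mm9, the assembly of the C57BL/6J strain, and left the other 4, of 3 genes (Defa-rs2, Defa-rs12 and Defa1), unmapped. Across the whole array 278 of 41174 probes (0.675%) were unmapped. Of the 10 member genes, Defa-rs2, Defa-rs12, Defa1, Defa4 and Defa6 also had no entry in the RefSeq gene table of GRCm38.p6. The first pair below sets an unmapped probe (Defa1) beside its closest mapped relative (Defa6), the next an unmapped member beside a predicted gene (LOC100044290), and the last bases 31 to 60 of a Defa-rs2 probe beside the same bases of the probe NAP057340-1, described in the files as cryptdin-related. Capitals mark the bases that differ within a pair, and all 60-base probes are printed whole apart from the last pair. Compared whole and without gaps, the probes of that last pair did not reach 80% identity. Their unprinted bases thus differ far more than the printed ones.
Defa1: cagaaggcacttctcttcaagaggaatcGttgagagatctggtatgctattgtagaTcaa
Defa6: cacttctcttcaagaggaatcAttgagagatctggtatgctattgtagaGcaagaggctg
Defa-rs12: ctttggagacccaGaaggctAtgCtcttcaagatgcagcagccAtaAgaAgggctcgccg
LOC100044290: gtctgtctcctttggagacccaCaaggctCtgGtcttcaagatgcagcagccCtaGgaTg
Defa-rs2: tTtggaacctcactatctgtcaaGaccctt
NAP057340-1: tCtggaacctcactatctgtcaaAaccctt

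The Defa1 and Defa6 probes overlap over 53 bases with 2 mismatches (96.2% identity), A22G and G50T with positions counted from the 5′ end of the Defa6 probe and its base first. Defa-rs12 and LOC100044290 overlap over 51 bases with 6 mismatches (88.2%). In all, 10 pairs of member probes overlap by at least 30 bases at 80% identity or more. Among them Defa23 and Defa6 share 42 bases with 3 mismatches (92.9%), Defa23 and Defa1 share 35 bases with 2 (94.3%), and the 2 Defa-rs2 probes share 33 bases with none. The files also list several transcripts for some probes. That of Defa6 lists Defa1 and Defa24, that of Defa4 lists Defa5 and Defa22, and that of Defa21 lists Defa22. Signal from one copy can therefore reach the probe of another, and the gene attached to each value below is uncertain to that extent.

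All 12 member probes were well above background in both control pools. In the Meis1-CKO pools they formed 2 sets, split by whether the files had placed them on mm9. The 4 unmapped probes were not well above background in either of the Meis1-CKO pools, whereas all 8 mapped probes stayed above background in both. Of the 12 probes, 11 were at least 2-fold lower with both Meis1-CKO arrays below both control arrays. The same held for 3.82% of all 24254 probes tested, and 3.51% were as far apart in the other direction. From that count nothing is read, since the members were chosen on this contrast. The median log2 difference (always Meis1-CKO minus control) was -1.76 over the members and -1.46 over the mapped ones, against -0.03 over all probes tested. For the unmapped probes, whose Meis1-CKO values are dim, only a bound can be given, and with each probe at its bound their median was -3.69, which leaves the member median at -1.76. With another background correction (normexp with an offset of 50), the medians were -0.85 over the members, -1.63 over the unmapped probes and -0.82 over the mapped ones other than Defa21. Under it 4 of the 12 probes met the 2-fold rule, and Defa1 (-0.83) and Defa-rs12 (-1.18) lay within the range of the mapped probes. TECs were measured in bulk, so that fewer expressing cells and less RNA per cell cannot be told apart.

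Among the unmapped probes, the cryptdin-related Defa-rs2 had the highest bounds, which also follow how bright a probe was in the controls. Its first probe (A_51_P102081) read 1.32 in control 1, 1.22 in control 2, -6.00 in Meis1-CKO 1 and -5.95 in Meis1-CKO 2. These are log2 signals after subtracting each array's 75th percentile, and below, values are always given for pool 1 and then pool 2, controls first. Both Meis1-CKO values lie below the lowest signal called above background on those arrays (-3.78 and -3.74), and both are surrogates that the scanner software put in place of a low reading. Before scaling, the intensities were 233 and 320 in the controls and 1.70 and 2.46 in the Meis1-CKO pools. The dim values give a bound rather than a level: set, array by array, against the lowest signal above background, or the probe's own signal where that was higher, Defa-rs2 was at least 32.7-fold lower in Meis1-CKO. Every such bound holds for this signal and this floor only, and normexp gave the unmapped member probes smaller differences. Computed from the dim values themselves, which give no measure of its size, the log2 difference was -7.25 (limma SE 0.43, n = 2 pools each), and -2.68 with normexp.

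The other Defa-rs2 probe (A_52_P307801) gave the same picture, although the 33 bases it shares with the first make it no independent measurement. It read 0.71 and 0.89 in the control pools and -5.64 and -5.61 in the Meis1-CKO pools, at least 23.6-fold lower, and both Meis1-CKO values were surrogates. The groups did not overlap, and the closeness of the Meis1-CKO values is that of surrogates. With normexp the difference was -2.09.

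Defa-rs12, a further cryptdin-related gene, read -1.13 and -0.72 in the control pools and -6.06 and -6.02 in the Meis1-CKO pools. Both Meis1-CKO values were surrogates, and the bound was at least 7.12-fold lower. The smaller bound goes with dimmer controls, with intensities of 42.6 and 82.9. Defa1, which encodes cryptdin 1, read -1.29 and -0.92 in the control pools and -3.96 and -5.34 in the Meis1-CKO pools, at least 6.28-fold lower. Its Meis1-CKO values were dim but measured, with no surrogate, and they lay further apart than those of the Defa-rs probes. Slide 1, which held control 1 and Meis1-CKO 1, and slide 2, which held the other two, both gave a lower Defa1 reading in Meis1-CKO.

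The 4 alpha-defensin probes outside the member list divided along the same line. The unmapped ones share a run of at least 20 bases with a member probe, which makes them no independent measurement. The unmapped probe of LOC100044290, a predicted gene, read 1.21 and 0.84 in the control pools and -4.70 and -5.98 in the Meis1-CKO pools, at least 27.5-fold lower. The unmapped NAP057340-1 probe read -0.52 and -0.21 in the controls and -5.93 and -5.86 in the Meis1-CKO pools, at least 10.5-fold lower. The 2 mapped probes of Defa39 stayed above background throughout. The first read 0.12, 0.39, 0.15 and -1.49 from control 1 to Meis1-CKO 2, where Meis1-CKO 1 lay between the controls. The second read -0.19, 0.21, -0.48 and -1.91 in the same order, with both Meis1-CKO pools below both controls. Their log2 differences were -0.92 (SE 0.65) and -1.20 (SE 0.61), and on slide 1 alone they were 0.03 and -0.28.

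Going from above background in both control pools to background in both Meis1-CKO pools happened for 178 of the 22257 probes that were above background in both controls (0.8%). The reverse happened for 473 of 22827 (2.07%). Of the 178, 9 reached a bound of at least 5-fold (0.0404% of the 22257 probes), and 6 of these 9 were the 6 unmapped alpha-defensin probes. The other 3 were probes of Vps13c (at least 8.14-fold lower), Acaca, the acetyl-CoA carboxylase gene (at least 6.19-fold), and the T cell gene Trat1 (at least 8.44-fold, from control values of -3.33 and 1.97). Of these 6 alpha-defensin probes, the members were chosen for low Meis1-CKO readings, and the others share a run of at least 20 bases with a member probe. Nothing is therefore read from their share of the 9. Of the 110 unmapped probes above background in both controls, 104 were not alpha-defensins. Of these, 97 were above background in both Meis1-CKO pools, 6 in one of them and 1 (0.962%) in neither, and 4 were at least 2-fold lower with separate arrays. The one in neither was a probe of the synaptic gene Snap25, which was dim throughout (-2.87, -2.85, -3.82 and -5.49 from control 1 to Meis1-CKO 2). Whether the mice of both genotypes carried the same alpha-defensin gene copies was not tested.

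**Figure D1:**
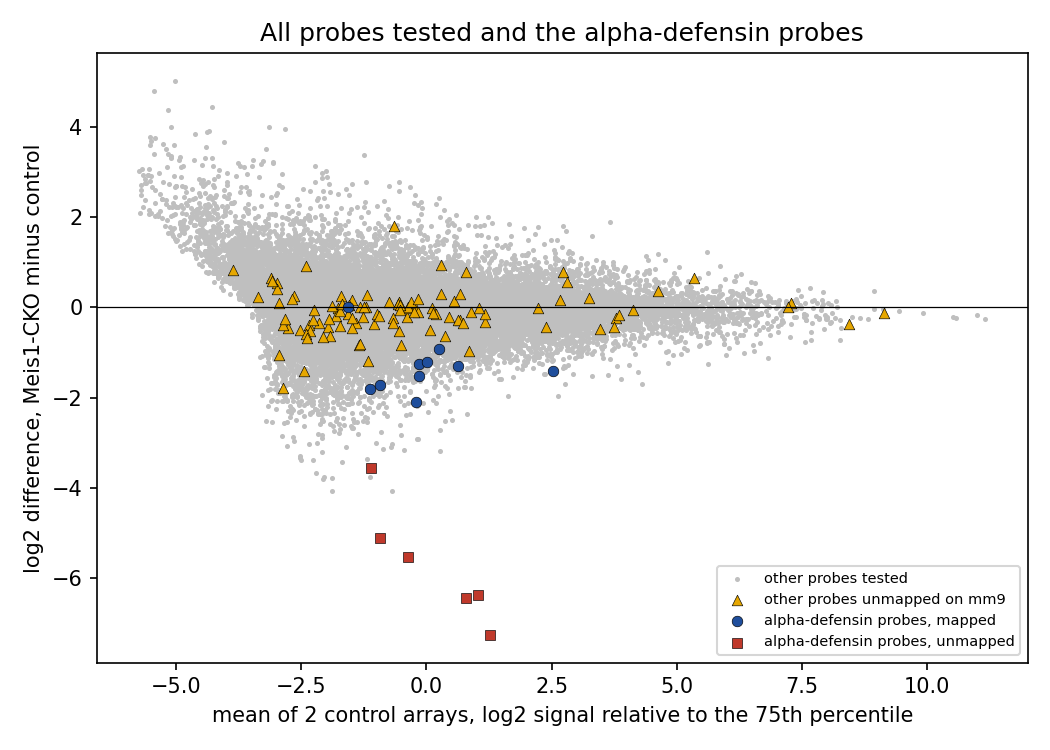
Log2 difference of Meis1-CKO minus control (vertical axis) against the mean log2 signal of the 2 control arrays (horizontal axis) for all 24254 probes tested. The 6 unmapped alpha-defensin probes (squares), plotted at differences from dim values that are not bounds, lie between -3.55 and -7.25, the mapped ones (circles) between 0.00 and -2.09, and the other unmapped probes (triangles) on both sides of 0.

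The mapped members other than Defa21 read 2.37- to 4.25-fold lower and stayed above background. With normexp the log2 differences of these 7 probes lay between -0.65 and -1.18, and 1 of them, a Defa3 probe, still met the 2-fold rule. Defa4, which encodes cryptdin 4, a strongly bactericidal member, was measured at chr8:22675993-22676052 (mm9), by a probe that also lists Defa5 and Defa22. It read -0.48 and 0.07 in the control pools and -2.03 and -2.56 in the Meis1-CKO pools. The groups did not overlap, and Defa4 was 4.25-fold lower in Meis1-CKO (log2 difference -2.09, SE 0.48, and -0.99 with normexp), with -1.55 on slide 1 and -2.62 on slide 2.

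Defa22 (chr8:22302055-22302114) read -1.16 and -1.09 in the control pools and -2.42 and -3.44 in the Meis1-CKO pools, a 3.49-fold lower level (log2 difference -1.80, SE 0.52, and -0.65 with normexp). Defa6 (chr8:22845161-22845779, a span wider than the probe), whose probe is the near twin of the Defa1 probe printed above, read -1.11 and -0.75 in the controls and -2.11 and -3.18 in the Meis1-CKO pools, 3.28-fold lower (log2 difference -1.71, SE 0.54, and -0.73 with normexp). For both genes Meis1-CKO 2 was the lower of the Meis1-CKO pools. In the Meis1-CKO pools the Defa6 probe was above background and the Defa1 probe was not.

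Defa3 had 2 probes that do not overlap. The first (chr8:22427232-22427291) read -0.36 and 0.06 in the control pools and -1.47 and -1.85 in the Meis1-CKO pools, 2.85-fold lower (log2 difference -1.51, SE 0.46, and -0.82 with normexp). The other (chr8:22427132-22427192), which lists several transcripts of the family, read 2.43 and 2.61 in the controls and 1.20 and 1.03 in the Meis1-CKO pools, 2.65-fold lower (log2 difference -1.40, SE 0.44). Its intensities of 504, 834, 250 and 312 from control 1 to Meis1-CKO 2 were well clear of background on every array, and its differences were alike on both slides (-1.24 and -1.57).

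Defa20 (chr8:22619859-22619918) read 0.33 and 0.93 in the control pools and -0.54 and -0.80 in the Meis1-CKO pools, 2.47-fold lower (log2 difference -1.30, SE 0.47). Defa23 (chr8:22194930-22195548) read -0.40 and 0.08 in the controls and -1.02 and -1.79 in the Meis1-CKO pools, 2.37-fold lower (log2 difference -1.25, SE 0.51, and -0.73 with normexp). In neither did the groups overlap, and both differed more on slide 2 (-1.73 and -1.87) than on slide 1 (-0.87 and -0.63).

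Defa21 (chr8:22166004-22166063) was the exception among the members. It read -2.74 in control 1, -0.41 in control 2, -1.25 in Meis1-CKO 1 and -1.89 in Meis1-CKO 2. The controls lay on either side of both Meis1-CKO pools, and slide 1 gave 1.49 and slide 2 gave -1.48, which left a log2 difference of 0.00 (SE 0.83). The spread lay between the controls, whose intensities before scaling were 13.9 and 103, against 45.7 in Meis1-CKO 1 and 41.1 in Meis1-CKO 2. Without control 1 the log2 difference was -1.16, and without control 2 it was 1.17. With a threshold of 2-fold, Defa23 was thus the member just inside and Defa21 the one outside.

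The slides did not weigh equally in the mapped set. Without Defa21, the median log2 difference of the mapped probes was -1.70 without Meis1-CKO 1 and -1.30 without Meis1-CKO 2. The same is not given for the unmapped probes, most of whose Meis1-CKO values are surrogates. Meis1-CKO 2 stood apart from the other arrays over all probes tested, with correlations across probes of 0.850 to 0.880 against 0.928 to 0.938 among the other three. Probes are not independent replicates, and these values only describe the arrays. The lower readings of the members were found on both slides, Defa21 excepted.

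**Figure D2:**
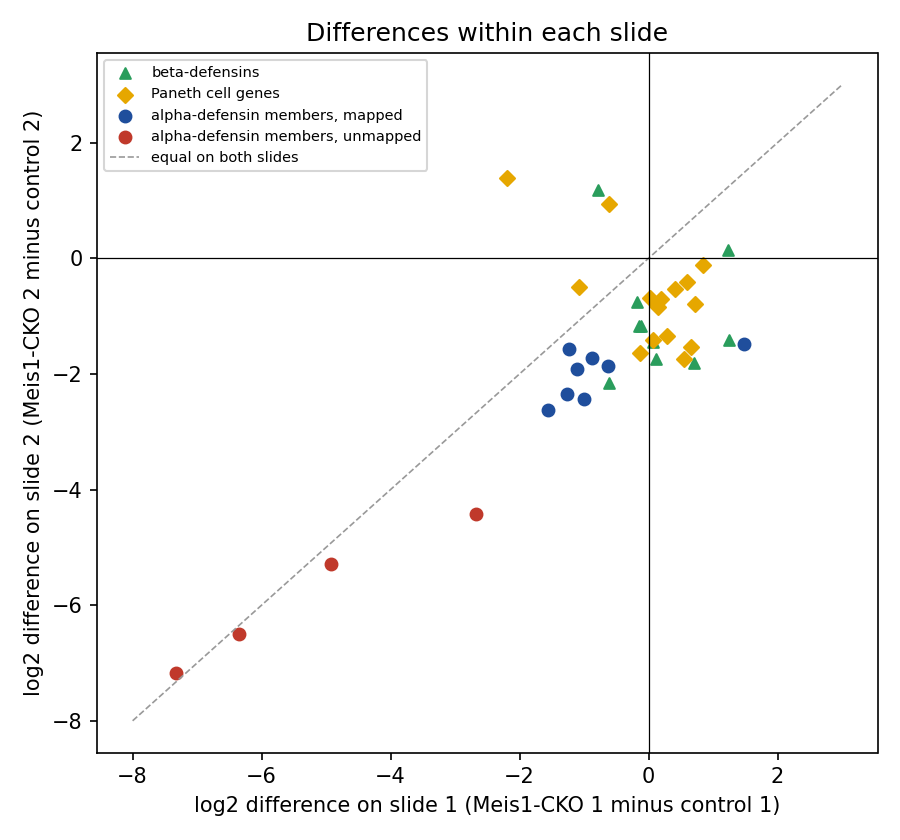
Log2 difference of Meis1-CKO minus control on slide 2 (vertical axis) against that on slide 1 (horizontal axis), with 1 point per member probe and per gene of the Paneth cell and beta-defensin lists. All member probes but Defa21 lie below 0 on both slides, with the unmapped ones plotted at dim values, 3 of the 4 at surrogates; most Paneth cell genes lie below 0 on slide 2 and above 0 on slide 1.

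On mm9 the mapped member probes span 679.775 kb of chromosome 8. Within 3 Mb on either side, 48 probes of genes that are no defensins were tested. Their median log2 difference was -0.14, with a range of -1.54 to 2.32, and 4 were at least 2-fold lower and 3 at least 2-fold higher with arrays that did not overlap. The 8 beta-defensin probes there, of a related family of epithelial antimicrobial peptides encoded beside the cluster, had a median of -0.55 and a range of -0.82 to 0.68, and none met that rule. Of the 8 mapped member probes, which were chosen on this contrast, 7 did, and 3.82% of all probes tested.

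**Figure D3:**
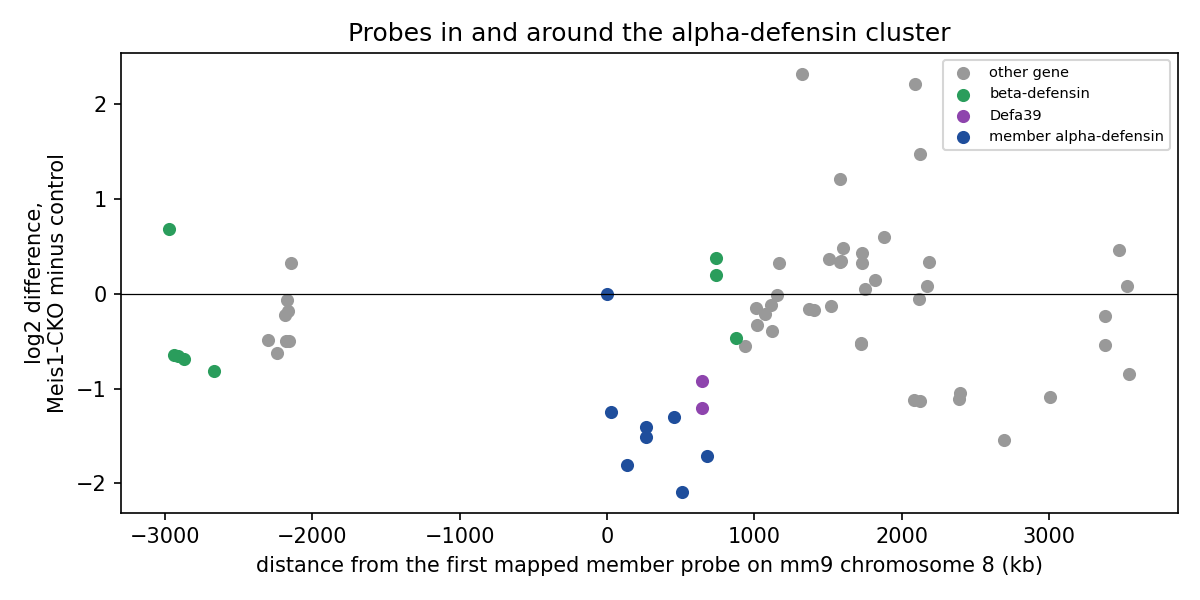
Log2 difference of Meis1-CKO minus control (vertical axis) against the distance in kb from the first mapped member probe on mm9 chromosome 8 (horizontal axis), with 1 point per probe tested. Members other than Defa21 lie between -1.25 and -2.09, the Defa39 probes above them at -0.92 and -1.20, and the probes of neighbouring genes lie on both sides of 0 with a median of -0.14.

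RefSeq promoters on GRCm38.p6, running from 250 bases before the start of transcription to 50 after it, were held for 4 of the 10 members, Defa20, Defa21, Defa22 and Defa23. They are shown to set the letters before each start beside one another. The 60 bases before each start are printed, from the plus strand, with TATAAA in capitals. They lie at chr8:21025485-21025544 for Defa21, chr8:21162217-21162276 for Defa22, chr8:21509198-21509257 for Defa20 and chr8:21054980-21055039 for Defa23.
Defa21: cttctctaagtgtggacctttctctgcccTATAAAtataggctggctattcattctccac
Defa22: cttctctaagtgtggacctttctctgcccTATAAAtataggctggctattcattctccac
Defa20: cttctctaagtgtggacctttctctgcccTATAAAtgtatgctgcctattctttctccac
Defa23: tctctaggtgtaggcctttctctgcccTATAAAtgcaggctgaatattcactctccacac

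Over 290 bases compared without gaps, the promoters of Defa21 and Defa22 were identical (100%), Defa20 matched both at 97.6%, and Defa23 matched the others at 70.0% to 70.7%. The log2 differences of the probes were 0.00 for Defa21, -1.80 for Defa22, -1.30 for Defa20 and -1.25 for Defa23. The Defa21 probe also lists the Defa22 transcript, and each of the others lists several transcripts, so these values cannot be assigned to single genes. Searched on both strands, TATAAA was found in 4 of 4 windows, against 13.6% of the 32851 promoters of the table. TCAAAG, the core bound by TCF and LEF factors of the WNT pathway, was also found in 4 of 4 and in 16.0% of all. TGACAG, the core bound by MEIS factors, was found in 0 of 4 and in 19.2% of all promoters. A match or its absence describes these letters in these windows only.

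Other genes listed for Paneth cells, not all of them particular to these cells, were measured in the same pools. Of 20 listed genes 19 were on the arrays and 15 were tested. None passed the test (limma, lowest adjusted p = 1.00), none was 2-fold lower with separate arrays, and 12 of the 15 differences lay below 0 with a median of -0.34 and a range of -0.88 to 0.37. That median was 0.19 on slide 1 and -0.71 on slide 2, and 0.37 once Meis1-CKO 2 was left out. Over all 24254 probes tested, 0 passed, and 3.82% were at least 2-fold lower with separate arrays. Counts of 0 in this list and in the lists below therefore do not set their genes apart from other probes. Mptx2 was not on the arrays, and Atoh1, Habp2, Pla2g2a and Spdef were not above background in both pools of either group.

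Lyz1, the lysozyme of Paneth cells, read 2.75 and 3.25 in the control pools and 3.15 and 2.71 in the Meis1-CKO pools (log2 difference -0.06, SE 0.47). Mmp7, the matrilysin that activates cryptdins, read 0.52 and -0.22 in the controls and -0.08 and 0.71 in the Meis1-CKO pools (log2 difference 0.16, SE 0.54). In both the groups overlapped. Ang4, an antimicrobial ribonuclease, read 0.49, -0.32, 0.68 and -1.03 from control 1 to Meis1-CKO 2 (log2 difference -0.26, SE 0.71), and another Ang4 probe stood at 0.21.

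The antibacterial lectin Reg3g read 6.03, 5.51, 6.18 and 4.67 in the same order (log2 difference -0.34, SE 0.64), highest in Meis1-CKO 1 and lowest in Meis1-CKO 2. Reg3b (-0.59) and Reg3a (-0.67) were likewise lowest in Meis1-CKO 2. Spink4 (log2 difference -0.88) and the guanylin family gene Guca2b (-0.79) had both Meis1-CKO pools below both controls, by less than 2-fold. The remaining log2 differences were -0.53 for the niche signal Wnt3, -0.44 for the trefoil peptide Tff3, -0.40 for the transcription factor Gfi1, -0.33 for Sox9, -0.04 for the lectin Itln1, 0.09 for the bacterial sensor Nod2 and 0.37 for Mptx1.

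Genes that act in processing, sensing and secretion of alpha-defensins were also tested. Of 17 listed 14 were tested, none passed (limma, lowest adjusted p = 1.00), and the median log2 difference was 0.06, with 6 of 14 below 0. The autophagy gene Atg5 stood at 0.81 and Atg16l1 at -0.03. The Toll-like receptor adaptors Ticam1 and Myd88 stood at 0.68 and 0.46, the receptor Tlr9 at -0.21, the kinases Lrrk2 and Ripk2 at 0.22 and -0.30, and Xbp1, a factor of secretory cells, at 0.48. The WNT pathway genes Tcf7l2, Ctnnb1 and Fzd5, which drive cryptdin transcription in the gut, stood at 0.02, -0.16 and -0.10. Atg7, Kcnn4 and Lef1 were not above background in both pools of either group.

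Beta-defensins had 10 of 28 genes tested, a median log2 difference of -0.60 (slide 1 alone -0.03, slide 2 alone -1.29) and none 2-fold lower with separate arrays. Defb3 read 1.60, 1.93, 1.66 and 0.49 from control 1 to Meis1-CKO 2. Other antimicrobial proteins had 13 of 16 tested with a median of -0.01, Ltf (lactoferrin) at 0.97, S100a9 at 0.55, Hamp at -0.47 and Mpo at -0.35. Intestinal epithelial genes had 19 of 22 tested with a median of -0.51 (slide 1 alone 0.03, slide 2 alone -0.91). Within them Olfm4, Fabp2, Guca2a and Hnf4a stood at -1.24, -1.07, -0.70 and -0.66, and another Fabp2 probe at 0.67. None of these genes passed the test (limma, lowest adjusted p = 1.00).

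Regulators and targets of tissue antigen expression had medians below 0 on slide 2 and not on slide 1. The 18 Aire-dependent antigens tested, of 21 listed, had a median log2 difference of -0.45 (slide 1 alone 0.43, slide 2 alone -1.15), and 2 were 2-fold lower with separate arrays. Lpo, Crp, Fabp9 and Mup4 stood at -1.13, -0.84, -0.74 and -0.73. Aire read 2.50, 4.59, 3.03 and 2.37 from control 1 to Meis1-CKO 2 (log2 difference -0.85, SE 0.78), so that Meis1-CKO 1 lay between the controls. Fezf2 read 2.80, 2.68, 2.85 and 1.05 in the same order (log2 difference -0.79, SE 0.69). The 11 regulators tested had a median of -0.66, with Foxn1 at -1.04, Irf8 at 0.97 and Deaf1 at -0.90, and another Deaf1 probe at 0.65. No gene of these lists passed (limma, lowest adjusted p = 1.00). Within slide 1 Aire and Fezf2 differed by 0.53 and 0.05 and within slide 2 by -2.22 and -1.63, and their part in the members' readings was not tested.

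Markers of the labelled cell type were present. All 18 TEC markers were tested, with median levels of 3.68, 4.28, 3.75 and 3.32 from control 1 to Meis1-CKO 2, and Epcam read 4.24, 4.72, 4.47 and 4.11. Their median log2 difference was -0.46, with Psmb11 at -1.96 and Prss16 at -1.30, both lower mainly in Meis1-CKO 2. Markers of other cells varied between pools. Ptprc, which encodes the CD45 used to remove leukocytes, read 1.44, 1.19, -0.75 and 5.55 in that order. Median levels in the same order were 0.82, -0.12, -1.77 and 0.90 for 11 thymocyte markers, 0.08, -0.50, -0.74 and 0.95 for 11 myeloid and leukocyte markers, and -0.23, -0.79, 0.12 and 0.48 for 9 neutrophil markers. Median log2 differences were -0.64, 0.74 and 0.97 for these 3 lists, -0.65 for 4 erythroid and -0.22 for 7 fibroblast and endothelial markers. Thymocyte and leukocyte levels had their lowest reading in Meis1-CKO 1 and their highest in Meis1-CKO 2. The part of these cells in the members' readings was not tested.

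Meis1 itself had 2 probes. One was above background in both control pools (-3.19 and -3.23) and in neither Meis1-CKO pool (-3.77 and -4.74), at least 1.46-fold lower. The other was above background throughout, with a log2 difference of -0.75 (SE 0.69, limma adjusted p = 1.00). Which exons were floxed is not stated in the labels, so the probes may lie outside the deleted stretch and do not check the genotype. Over all 24254 probes, limma called 0 higher and 0 lower at an adjusted p under 0.05, and 706 had an unadjusted p under 0.05.

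The probes outside the family whose profiles over the 4 arrays were nearest to the members' median profile (-0.19, 0.19, -1.32 and -2.28 from control 1 to Meis1-CKO 2 after subtracting the control mean) were found by Euclidean distance. The nearest was a probe of the serine protease gene Tmprss3 (distance 0.182), which read -1.05, -0.85, -2.37 and -3.15. It was followed by Smco2 (0.225), the cytochrome P450 gene Cyp1a2 (0.245), Gabrg3 (0.250), the keratin gene Krt13 (0.251), Krba1 (0.259), Fip1l1 (0.273) and Wfikkn2 (0.288). Their log2 differences lay between -1.66 and -1.97. Krba1 and Wfikkn2 were above background on 2 arrays only, and Gabrg3 and Krt13 on 3. The differences of these genes rest in part on dim Meis1-CKO values, which do not measure their size. With 4 arrays such nearness is a description only.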

How the data were processed

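Spot intensity values on a linear scale were deposited as scanner output, which, per the file headers, Agilent Feature Extraction 9.5.3.1 background-subtracted and detrended within each array, with surrogates in place of low values. A table of log2 values was deposited too. Over 20818 probes its column differences had a slope of 1 with those of the signals used here, and each probe was centred on a median of 0, with column medians of 0.04 and 0.09 (controls) and -0.06 and -0.12 (Meis1-CKO). How it was made is not stated in the labels.

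The log2 processed signal minus the 75th percentile of each array (93.2 and 137 in the controls, 109 and 152 in Meis1-CKO) was used. Of 45018 spots, 1639 control spots and 63 to 78 outlier spots per array were left out. Between 58.6% and 63.6% of spots were well above background and 0 were saturated, and the number of arrays limits the precision. Spots of 1 probe were averaged, and every member probe was kept apart. In the lists, 1 probe stands for each gene. A probe had to be well above background in both pools of either group to be tested with limma 3.58.1 (lmFit and eBayes, R 4.3.3) and adjusted by Benjamini-Hochberg. The test was checked on simulated data.

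Slides are those named in the file headers and coincide with replicate numbers. The labels do not say which pools share an experiment, and the deviations of same-numbered arrays had a correlation of 0.14 across probes. The labels do not say that pools of one genotype came from separate litters. The p-values therefore rest on the spread between these pools, which limma moderated with that of all probes tested.

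The members and gene lists were chosen with earlier results of these data known. Named are every member probe, every tested gene of the Paneth cell and processing lists, from other lists up to 4 genes with the largest difference among those above background on all 4 arrays (not all are printed), Meis1, Aire and Fezf2, and the 8 probes nearest in profile. Vps13c, Acaca, Trat1, Snap25, Ptprc, Epcam and Defb3 are named to show counts or checks. Symbols were matched to a RefSeq table of GRCm38.p6 by accession for 26690 of 41174 probes. Promoter coordinates are on GRCm38.p6 and probe coordinates on mm9, as in the array files.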

Additional observations from a re-analysis of the deposited data

How the results depend on the processing

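The median log2 difference of the members (-1.76) became -0.85 with normexp background correction, whose offset of 50 pulls dim values together, and lay between -2.28 and -1.32 when single pools were left out. Under normexp the unmapped probes had a median of -1.63 and the mapped ones (Defa21 left out) of -0.82, but their ranges overlapped, and only both Defa-rs2 probes (-2.68 and -2.09) lay below every mapped one. The count of members at least 2-fold lower with separate arrays (11) was 4 with normexp and 7 where all 4 arrays had to be above background, which leaves 8 members tested, and lay between 10 and 12 without single pools. The Paneth cell median (-0.34) lay between -0.83 and 0.37 without single pools, and was 0.37, with its sign turned, without Meis1-CKO 2. The 178 probes that were above background in the controls alone became 467 to 1148 without single pools, as fewer arrays then had to meet the rule. All 117 alternative values of the 11 member probes other than Defa21 were below 0, and Defa21 ranged from -1.16 to 1.17. The filters on dim probes and the block cannot change the value of a probe. As the members were also chosen for low readings, nothing is read from that count. With the replicate number (slide) as a block, limma called 0 higher and 0 lower, and 1002 probes had an unadjusted p under 0.05 against 706 without it. The member and Paneth cell medians stayed at -1.76 and -0.34, which was fixed in advance, since each slide held 1 pool of each group. No setting run gave a probe or a listed gene an adjusted p under 0.05 in these counts, with 279 (normexp) to 3899 (without Meis1-CKO 1) probes at an unadjusted p under 0.05. Signal over background limits the unmapped probes: their Meis1-CKO readings give bounds, not levels.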
